A study of Mus musculus with 4 samples.

Results

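The mouse major histocompatibility complex (MHC) occupies a short stretch of chromosome 17, and its accessible regions were followed in B16-F10 melanoma cells with and without Ssbp4. Calls of 4 ATAC-seq libraries were merged where they overlapped by 1 bp or more, and the regions with a midpoint between 33.5 and 37.5 Mb of chromosome 17 (GRCm39) were taken. These were 297 of 72251 union regions on chromosomes 1 to 19, X and Y. The other 3031 regions of chromosome 17 served as the reference. ATAC-seq marks open chromatin by the sites at which the transposase Tn5 inserts adapters. B16-F10 is an established mouse melanoma line. The comparison has 2 wild-type libraries, whose control guide targets an intergenic site of chromosome 2 according to the protocol, and 2 libraries from cells electroporated with Cas9 and a mixture of guides against Ssbp4. The labels do not say whether the edited cells were a clone or a population. All cells were frozen, thawed and checked for viability before the assay. No label says that the libraries of a genotype came from separate cultures, so the spread between them may be technical.

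MHC class I molecules carry peptides from inside the cell to its surface, where CD8 T cells read them, and class II molecules present peptides taken up from outside, mostly on specialised antigen-presenting cells. The mouse complex holds the classical class I genes H2-K1 and H2-D1 far apart, with the class II genes, the peptide transporter and immunoproteasome genes and the complement and tumour necrosis factor genes between them, and the Q, T and M families of class I-like genes beyond H2-D1. B16-F10 is known as a line that shows little class I at rest and more after interferon gamma. In the RefSeq gene table of an older build, GRCm38.p6, H2-K1 lies between Vps52 and Ring1, H2-D1 lies between Ddx39b and H2-Q1, and 81 protein-coding genes separate them. Of 65 genes in the lists used for this interval, 63 were matched in that table, and all 9 listed class II genes and 4 of the 5 antigen-processing genes lay between H2-K1 and H2-D1. Gene positions in that table cannot be set against calls in GRCm39. H2-K1 and H2-D1 were therefore placed only by their approximate positions in GRCm39, 34.22 and 35.48 Mb, and every other region is named by its own position and not by a gene.

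Upstream sequence of the classical class I genes is printed because these genes give the interval its landmarks, though their start sites were not located in GRCm39. It carries the elements through which class I transcription is known to respond to NF-kappaB, interferon and the class II transactivator family. Both stretches come from RefSeq with GRCm38.p6 positions, end at the base before the annotated start, and run 5′ to 3′ on the gene's strand, with matches in capitals. H2-K1 is chr17:34000334-34000478 on the minus strand and H2-D1 is chr17:35262903-35263093 on the plus strand. The table has 2 starts for H2-K1, and the one furthest downstream was used.
H2-K1: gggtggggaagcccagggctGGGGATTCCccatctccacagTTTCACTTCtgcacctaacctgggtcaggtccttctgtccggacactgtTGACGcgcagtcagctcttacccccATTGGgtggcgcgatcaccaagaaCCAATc
H2-D1: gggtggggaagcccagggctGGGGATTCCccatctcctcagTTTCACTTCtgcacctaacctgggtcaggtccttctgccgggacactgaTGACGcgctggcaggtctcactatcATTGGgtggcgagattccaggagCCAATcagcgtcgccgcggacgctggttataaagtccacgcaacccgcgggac

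The capitals mark GGGGATTCC (within a kappaB site), TTTCACTTC (the core of an interferon-stimulated element), TGACG (the core of a cyclic AMP response element) and CCAAT, which also appears as ATTGG on the other strand. The motifs were searched on both strands, and no matches overlapped. The same letters stood in the same order in both genes, and 129 of 144 aligned bases (89.6%) were identical. Among 27025 genes with 250 bases upstream of a start in the table, GGGGATTCC occurred in 0.218%, TTTCACTTC in 0.429%, TGACG in 17.9% and CCAAT in 34.5%, and 3 genes held all 4, H2-K1, H2-D1 and the class I gene H2-Q7. Of the 15 listed class I genes with an entry, 7 held TTTCACTTC, namely H2-K1, H2-D1, H2-Q4, H2-Q6, H2-Q7, H2-Q10 and H2-M3. These matches describe letters and do not show binding, and no call was placed on them because the builds differ.

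The libraries held 50068 to 63080 calls on the chromosomes used. Total reads were not used here, so depth is unknown. The genome-wide background, recovered from the lists as the lowest pileup expected at a call, was 14.7 and 15.1 in the wild-type lists and 17.2 and 17.4 in the knockout lists. Melanocyte markers and Ssbp4 itself were not checked, because gene positions in this build were not used, and the knockout labels were therefore taken as given.

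The MHC interval was dense in accessible regions. It held 74.2 regions per Mb, against 34.4 on the rest of the chromosome between its first and last region. In windows of 250 kb, the median was 19 regions in the 16 windows of the interval and 5 in the 353 others. Dense windows also lay elsewhere on the chromosome, where the fullest held 40 regions and 49 held more than 20, against 8 in the interval. No region lay in 87 of the windows elsewhere, against 1 in the interval. The fullest window of the interval, 35.25 to 35.50 Mb and ending just past the H2-D1 position, held 38 regions. Another dense window lay at 36.00 to 36.25 Mb with 35 regions, and the window that ends just above the H2-K1 position, 34.00 to 34.25 Mb, held 30. Between the landmarks there were 95.2 regions per Mb, below H2-K1 61.1 and above H2-D1 65.8.

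Density was interrupted by long stretches without a call. The longest ran for 285 kb from 36729515 to 37014385 and left the window at 36.75 to 37.00 Mb without a region in any library. The next ran for 223 kb from 34533446 to 34756068, between the landmarks, and the window at 34.50 to 34.75 Mb held only 2 regions. A further gap of 93.4 kb lay above the H2-D1 position, from 35639713 to 35733087. The median gap between neighbouring regions was 6.12 kb, against 8.50 kb on the rest of the chromosome.

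**Figure D1:**
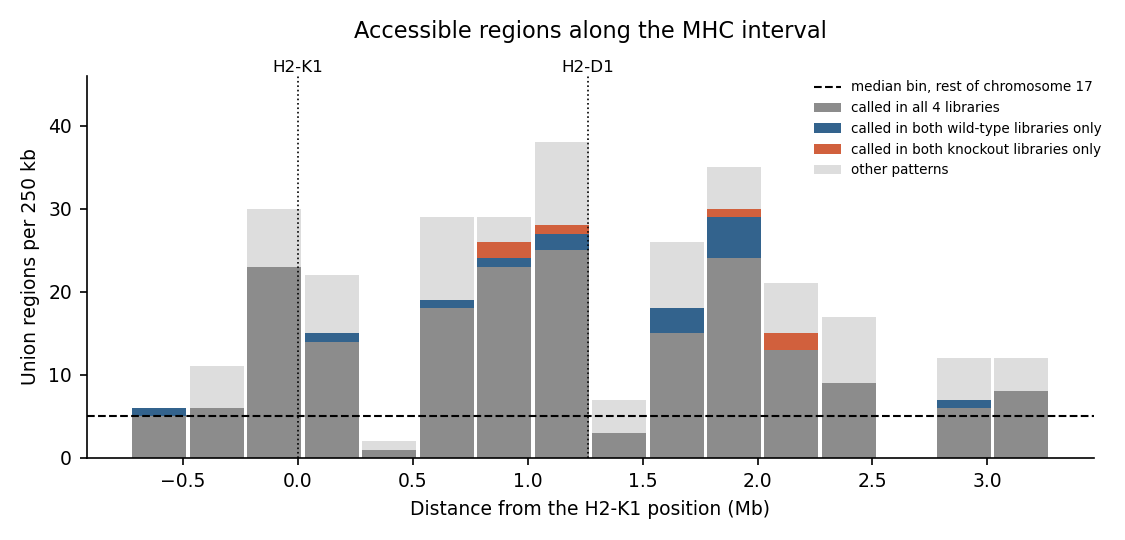
Number of union regions in windows of 250 kb (bars, split by the libraries that called them) against distance from the H2-K1 position in Mb, with dotted lines at the H2-K1 and H2-D1 positions. The dashed line is the median window of the rest of chromosome 17, 5 regions, and the fullest window of the interval holds 38.

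By p-value and summit pileup, though not by fold, calls of the interval ranked above those of the rest of the chromosome in each library. Calls in the interval numbered 247 and 259 in wild-type replicates 1 and 2, against 224 and 248 in knockout replicates 1 and 2. Of these, 16.6% and 17.4% in wild type against 15.2% and 15.3% in the knockout were among the strongest 10% of their list by the deposited −log10 p-value. On the rest of the chromosome the shares were 10.2%, 10.4%, 10.4% and 10.4%. Median summit pileups were 180, 200, 152.5 and 153 reads in the interval, against 126, 137, 116 and 120 elsewhere. Median folds over background were 5.61, 5.69, 4.32 and 4.55, against 5.55, 6.01, 4.56 and 4.60, so that they were lower in the interval in 3 of the 4 libraries. Regions in the strongest 10% of all 4 lists numbered 34 of 297 (11.4%), against 205 of 3031 (6.76%) on the rest of the chromosome. The local background of the calls was higher here as well, with medians of 29.9, 29.9, 30.9 and 30.3 reads against 21.0, 20.8, 25.4 and 24.6. Its part in the p-values and pileups of the calls was not tested.

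**Figure D2:**
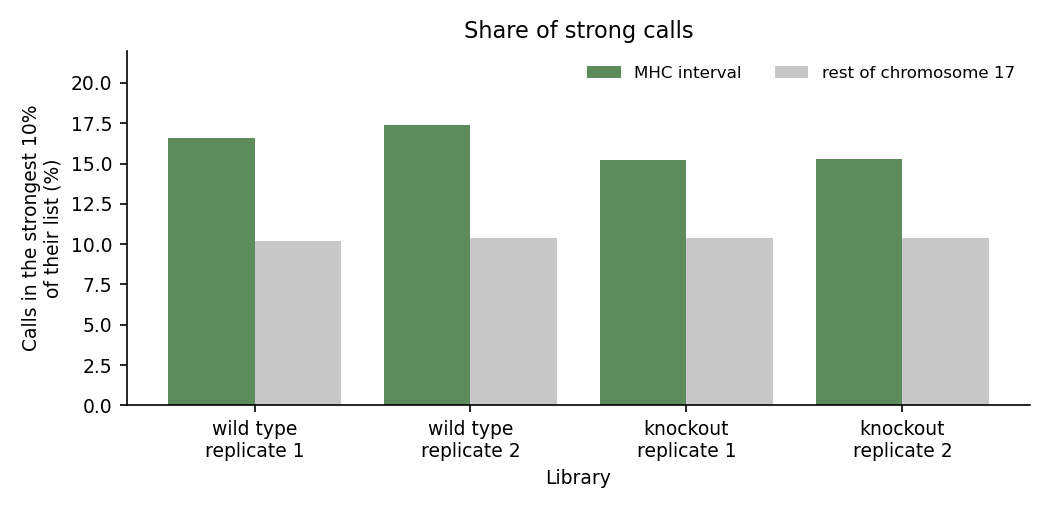
Share of calls (%) in the strongest 10% of their own list, by library, for the MHC interval and the rest of chromosome 17. All 4 libraries show 15.2% to 17.4% in the interval and 10.2% to 10.4% elsewhere.

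The share of chromosome 17 calls that fell in the interval was 8.99% (Wilson 95% interval 7.98–10.12) and 9.05% (8.05–10.15) in wild type, against 9.92% (8.75–11.22) and 9.40% (8.34–10.57) in the knockout. The shares of the knockout libraries were the higher pair, while all 4 intervals, which cover counting error only, overlapped. The means were 9.02% ± 0.0365 (SD, n = 2) and 9.66% ± 0.37 (SD, n = 2), a difference of 0.638 percentage points. The exact two-sided permutation test gave p = 0.33, the smallest that 2 against 2 libraries allow. Calls covered 248 and 249 kb of the interval in the wild-type libraries and 236 and 242 kb in the knockout libraries. As a share of the covered sequence of chromosome 17, the interval was 0.515 percentage points higher in the knockout (exact two-sided permutation p = 0.33), a larger share of a shorter total.

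Most regions of the interval were open in every library. Of 297 regions, 193 (65.0%) were called in all 4 libraries, against 59.1% on the rest of chromosome 17. Regions called in a single library made up 13.8%, against 17.9%. Another 13 regions (4.38%) were missing from knockout replicate 1 alone, the shortest list, against 7.89% on the rest of the chromosome. The summits of the 193 shared regions lay within 50 bp of each other over the 4 libraries in 102 cases, with a median spread of 45 bp.

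Regions termed lost, with a call in each wild-type library and none in the knockout, numbered 15 (5.05%), beside 7.09% of all union regions and 6.93% of the rest of chromosome 17. Regions termed gained, with the reverse pattern, numbered 6 (2.02%), beside 1.52% and 1.19%. The counts are small and near the genome-wide shares. With lists cut to equal length the interval had 5 lost (2.00%) and 8 gained regions (3.20%), beside 4.63% and 3.46% of all union regions. The balance thus reversed in the interval, on small counts, while over the genome lost regions still outnumbered gained ones. Under a −log10 q of at least 5 there were 14 lost regions (5.32%, beside 8.19% of all union regions) and 1 gained (0.38%, beside 0.852%).

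Lost regions were short and weak. Their median length was 605 bp, against 1188 bp for the shared regions of the interval, and in each wild-type list 14 of the 15 ranked under the median call. The rest of chromosome 17 was similar, with median lengths of 554 bp for lost and 1183 bp for shared regions. A shared region merges calls of 4 lists and a lost region those of 2, which lengthens the former. The exception was chr17:36233402-36233914, with deposited folds over background of 3.57 and 3.81 in wild-type replicates 1 and 2, at the 54.1 and 56.2 percentiles of those lists. Its local background was 77.4 and 82.6 reads, so that a modest fold stood on a high background. The region at 35.950 Mb, of 367 bp, had folds of 3.44 and 3.71, and the regions at 35.290 and 35.300 Mb had folds of 4.44 and 5.06 and of 3.46 and 3.65. These last lie 190 and 180 kb below the H2-D1 position, with 1 shared region between them. The region at 33.669 Mb had 4.34 and 4.65, and that at 36.023 Mb 3.76 and 3.66. Of the 15 lost regions, 13 lay within 10 kb of a region open in all 4 libraries, at a median gap of 5.56 kb, close to the 5.31 kb that separates shared regions from each other. Along the interval, 9 of the 15 lay above the H2-D1 position, where 133 of the 297 regions lie, and 5 of them fell in the window at 36.00 to 36.25 Mb.

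Gained regions were weak as well, and all 6 ranked under the median call in each knockout list. The strongest, at 35.191 Mb, had folds of 3.81 and 4.92 in knockout replicates 1 and 2, at the 37.7 and 47.7 percentiles. The other 5 had folds between 1.69 and 2.71 and stood near the lower end of the lists. They lay at 35.033, 35.442, 36.243, 36.253 and 36.299 Mb. The last 3 lie above the strongest lost region at 36.234 Mb, with regions called in all 4 libraries between each of them. Only the region at 35.191 Mb was still gained under the stricter q-value.

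For regions called in all 4 libraries, the pileup of reads at the summit was recovered from the deposited fold and p-value, brought to a common distribution over all 44000 such regions, and compared with limma. Higher and lower therefore mean relative to the other shared regions of the genome. A region had to be called in both knockout libraries to enter, so complete losses are not part of this comparison. Of the 193 shared regions of the interval, 12 were higher in the knockout at an adjusted p under 0.05 (6.22%, beside 7.32% of all shared regions) and 13 were lower (6.74%, beside 10.0% of all shared regions). The shares of the interval were thus near or under the genome-wide shares. With libraries centred on their medians instead, 22 were higher and 12 lower, and over the genome 5744 and 3942 in place of 3222 and 4416. When any one library was left out, nearly all calls were lost, in the interval and over the whole genome alike. Such a fit leaves a lone library in a genotype, assumed to vary like the others. The median log2 difference, knockout minus wild type, was 0.08 over the 193 regions, against 0.02 on the rest of the chromosome and 0.03 over the genome. It was −0.91 at the lowest and 0.77 at the highest, and 124 of 193 regions stood within 0.2 of no difference. Without the test, both knockout levels lay above both wild-type levels in 86 regions (44.6%, beside 33.9% of all shared regions) and below them in 35 (18.1%, beside 27.1%). The median normalised level of the 193 regions was 7.98 and 7.89 in wild type, against 8.09 and 7.97 in knockout replicates 1 and 2. Wild-type replicate 1 thus lay above knockout replicate 2, and the SD of this median between replicates, 0.075, was about as large as the median difference. For single regions, the median difference between the replicates of a genotype was 0.098 in wild type and 0.097 in the knockout.

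**Figure D3:**
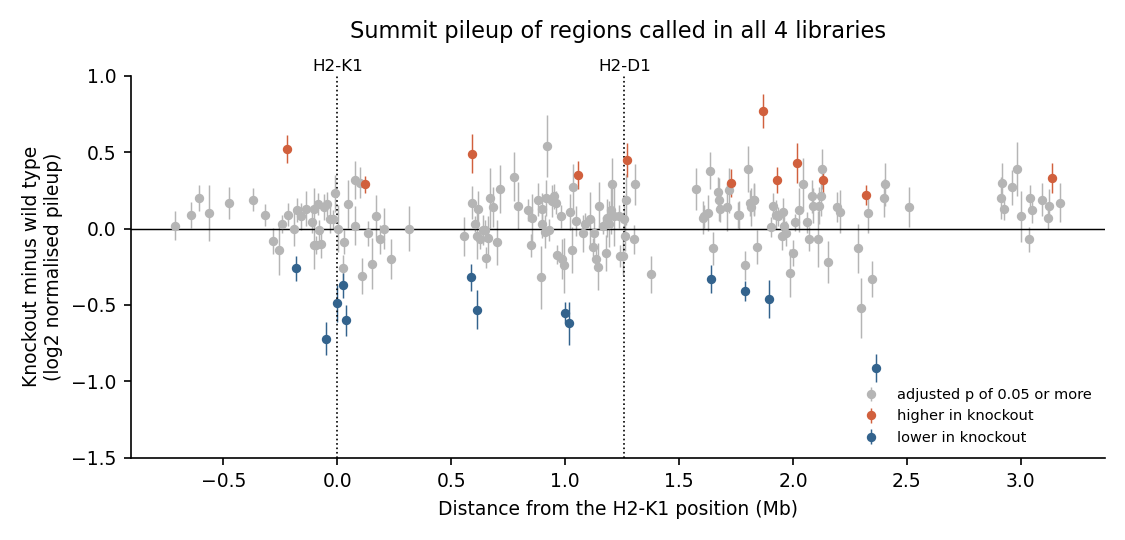
Log2 difference of the normalised summit pileup, knockout minus wild type, of the 193 regions called in all 4 libraries, against distance from the H2-K1 position in Mb; points are regions and bars are standard errors from limma (2 libraries a genotype). The 13 lower regions include 4 close to the H2-K1 position, and the 12 higher regions include 8 above the H2-D1 position.

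The region nearest to the H2-K1 position was lower in the knockout. That position is approximate, so whether this region lies at the start of H2-K1 is not known. The region spans chr17:34217677-34219861, with its centre 1.23 kb below the position. Its summit pileup was 184 and 200 reads in wild-type replicates 1 and 2 and 95 and 108 in knockout replicates 1 and 2. After normalisation the log2 levels were 7.42 and 7.32 against 6.94 and 6.82, so that the genotypes did not overlap. The difference was −0.49 (SE 0.121), or 1.40-fold lower, with an adjusted p of 0.02 by limma. Calls covered 1934 and 1579 bp of the region in wild type, the latter in 2 calls, against 1101 and 980 bp in the knockout. Called length depends on pileup and background, so it is not a separate result. The neighbours on either side did not pass. At chr17:34222364-34223332 the pileups were 98, 109, 83 and 79, with a log2 difference of 0.00 (SE 0.154). At chr17:34210769-34211470 they were 118, 146, 104 and 128, with a difference of 0.23 (SE 0.121, adjusted p = 0.21 by limma).

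At the H2-D1 position, none of the 3 nearest regions passed the test. The nearest, chr17:35481444-35482633, had pileups of 333 and 387 in wild type against 211 and 288 in the knockout, which normalisation brought to 8.25 and 8.20 as group means (log2 difference −0.05, SE 0.099, adjusted p = 0.75 by limma). The region at 35.477 Mb differed by 0.06 (SE 0.090) and that at 35.474 Mb by −0.18 (SE 0.123). The genotypes overlapped at the nearest region and at 35.474 Mb, and were separate but close at 35.477 Mb. Within 50 kb of the H2-K1 position, a distance chosen after the values were seen, 4 of 12 shared regions were lower (beside 10.0% of all shared regions), 1 of them only just inside this limit, with its centre at −49.5 kb. Within 50 kb of the H2-D1 position, 1 of 10 was higher (beside 7.32%). Whether the surroundings of the landmarks differ from each other was not tested.

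**Figure D4:**
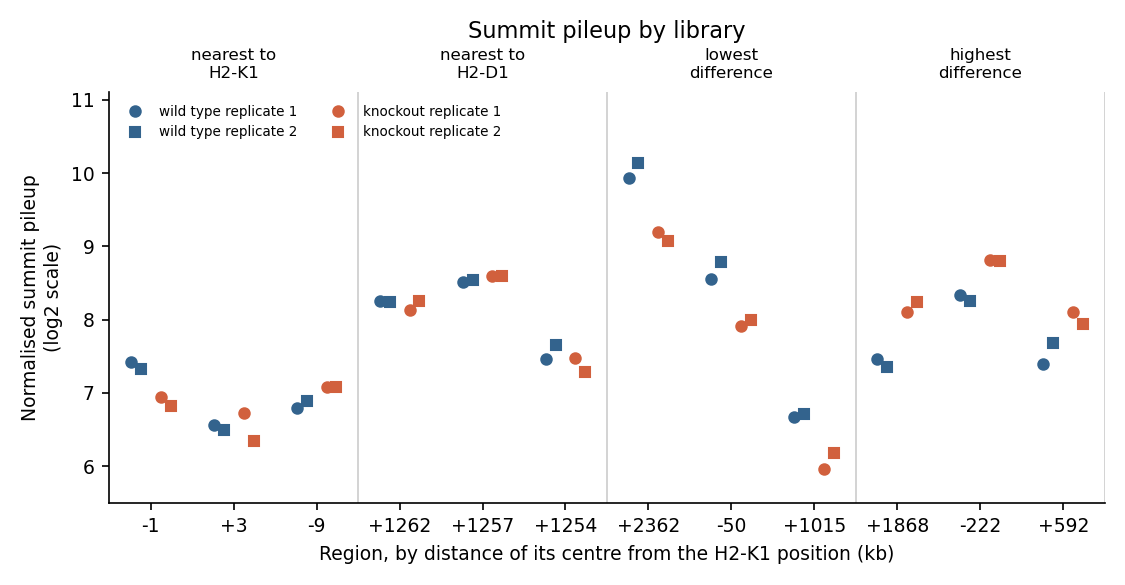
Normalised summit pileup (log2 scale) in each library for the 3 regions nearest to the H2-K1 and H2-D1 positions and for the 3 lowest and 3 highest differences; regions are labelled by the distance of their centres from the H2-K1 position in kb. At the region nearest to H2-K1 both knockout libraries (6.94 and 6.82) lie below both wild-type libraries (7.42 and 7.32), while at the region nearest to H2-D1 the genotypes overlap.

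The other 3 lower regions near H2-K1 lay on either side of it. At chr17:34169924-34171058 the pileups were 409 and 563 in wild type against 182 and 239 in the knockout, 1.65-fold lower after normalisation (log2 difference −0.72, SE 0.106, adjusted p = 0.0019 by limma). At chr17:34257437-34260647, one of the 5 longest regions of the interval, they were 446 and 488 against 205 and 236 (−0.60, SE 0.100, adjusted p = 0.0032 by limma). At chr17:34246146-34247310 they were 899 and 1172 against 550 and 638 (−0.37, SE 0.082, adjusted p = 0.013 by limma). Apart from the region nearest to H2-K1, the shared regions between them did not pass the test.

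The lowest difference of the interval lay far from both landmarks, at chr17:36581641-36583094, in its sparser upper part. Its pileup was 1036 and 1403 in wild type against 448 and 511 in the knockout, a log2 difference of −0.91 (SE 0.091), or 1.87-fold lower, with an adjusted p of 0.0004 by limma. With any one library left out, its difference ran from −1.02 to −0.81. The region was a strong call in every list, at the 93.1 and 95.2 percentiles in wild type against 82.7 and 83.4 in the knockout. Among the strongest calls that fell, chr17:36008180-36009575 had pileups of 2666, 2829, 1433 and 1856 (−0.41, SE 0.067) and chr17:35219184-35221148 had 1373, 1604, 715 and 824 (−0.55, SE 0.071).

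The region at 35.220 Mb and chr17:35234530-35235939 were the only neighbours in the order of shared regions to pass in the same direction, 13.4 kb apart. The latter was a weak region, with pileups of 107, 127, 53 and 71 and a difference of −0.62 (SE 0.142). Its called length was 1320 and 1290 bp in wild type, against 440 and 716 bp in the knockout. The remaining named lower regions were chr17:34834543-34835747, with pileups of 293, 314, 152 and 150 (−0.53, SE 0.129), and chr17:36113440-36114323, with 173, 184, 84 and 111 (−0.46, SE 0.124). With the ranks of the calls in place of pileups, the last of these no longer passed (adjusted p = 0.087 by limma). The local background of the 13 lower regions was also lower, with medians of 84.2 and 86.6 reads in wild type against 54.3 and 58.0 in the knockout. In the 168 shared regions that did not pass, the medians were 38.0, 40.0, 35.2 and 38.4. The part of the background in these differences was not tested.

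Regions higher in the knockout were mostly so relative to the other regions and not in raw pileup. Only 1 of the 12 had knockout pileups above both wild-type pileups before normalisation, chr17:36087593-36088553. It had 190 and 206 reads in wild type against 209 and 284 in the knockout. The normalised levels were 7.46 and 7.36 against 8.11 and 8.24, a difference of 0.77 (SE 0.109), or 1.70-fold higher, with an adjusted p of 0.0016 by limma. The shared region nearest to it lay 23.6 kb away, though regions not called in all 4 libraries lay between it and the next shared region above. In the next, chr17:33998008-33998804, the pileups were 350, 391, 346 and 424 and the difference was 0.52 (SE 0.091, adjusted p = 0.0042 by limma). At chr17:34811762-34812561 they were 180, 259, 208 and 231 (0.49, SE 0.126).

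Close to the H2-D1 position, 13.7 kb above it, chr17:35493082-35494410 had pileups of 196 and 200 in wild type against 174 and 222 in the knockout. Relative to the other regions it was 1.37-fold higher (log2 difference 0.45, SE 0.113, adjusted p = 0.021 by limma). The region at 35.278 Mb differed by 0.35 (SE 0.091), with pileups of 613, 633, 518 and 655. Of the 12 higher regions, 8 lay above the H2-D1 position, 3 between the landmarks and 1 below H2-K1, while the 13 lower regions fell as 4, 6 and 3. The shared regions number 81, 81 and 31 in these stretches, and their median differences were 0.13, 0.02 and 0.08. A further 5 named higher regions lay in the upper stretch, at 35.947, 36.149, 36.238, 36.354 and 37.357 Mb. Their differences ran from 0.30 to 0.43. By ranks, those at 35.947, 36.238, 36.354 and 37.357 Mb no longer passed, at adjusted p = 0.075, 0.63, 0.14 and 0.068 by limma. With libraries centred on their medians, the region at 35.947 Mb also lost its call (0.27, adjusted p = 0.052 by limma).

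The 10 strongest shared regions were taken by the lowest of their percentiles in the 4 lists. This ranking uses the knockout lists, so a strong region that was lower in the knockout ranks further down, and the tests of these 10 say little of strong regions in general. None of the 10 passed, while the region at 36.009 Mb, lower in the knockout, had higher wild-type pileups than some of them. At the head stood chr17:34822352-34824033, in the 99.9 percentile of every list, with pileups of 4361 and 4839 in wild type against 3557 and 4297 in the knockout and a normalised difference of 0.03 (SE 0.050). With libraries centred on their medians it was higher by 0.22 (adjusted p = 0.023 by limma). The next, chr17:33978832-33979810, had 2854, 3301, 2249 and 2806 (0.03, SE 0.056), and chr17:35383510-35384697 had 2602, 2962, 2060 and 2459 (0.02, SE 0.056). The other 7 of the 10 strongest lay at 36.228, 35.341, 34.110, 35.354, 34.129, 35.455 and 36.124 Mb. The differences of the 10 ran from −0.20 at 35.354 Mb (SE 0.066, adjusted p = 0.061 by limma) to 0.08 at 35.455 Mb (SE 0.073).

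Broad regions were somewhat more common here, with 8 of 297 (2.69%) at 2500 bp or longer, against 1.42% on the rest of the chromosome. The longest, chr17:34337838-34341810, spans 3973 bp, and its pileups of 2399 and 2750 in wild type against 2272 and 2759 in the knockout made it higher by 0.29 (SE 0.056, adjusted p = 0.0063 by limma). Just below it, chr17:34327131-34330787 had 240 and 276 against 147 and 153, and did not pass (−0.31, SE 0.120, adjusted p = 0.097 by limma). Whether these broad neighbours differ from each other was not tested. The region at 34.846 Mb differed by −0.07 (SE 0.063) and that at 35.365 Mb by −0.25 (SE 0.153), and neither passed.

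At the limits of the interval, the first region, chr17:33507923-33508990, was open in all libraries, with folds of 14.9, 16.1, 11.4 and 14.1, and the region next outside, at 33473661 to 33474770, was similar with 14.6, 16.3, 11.7 and 13.7. The last region, chr17:37480469-37481171, was called only in the replicates 2 of both genotypes, with folds of 3.84 and 2.93. The region next outside, at 37514253 to 37515161, was called in all 4 libraries with folds of 4.85, 6.26, 3.80 and 4.66.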

How the data were processed

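Peak lists of 4 ATAC-seq libraries were used, 1 per library, with peaks called by MACS2 on GRCm39, per the submitters' processing notes. The sources used here do not name the aligner, the versions, any duplicate filter or any Tn5 shift. The authors deposited a score per call, not used here, together with the fold of the summit over local background and its −log10 p-value and q-value. These values belong to each call and describe or rank calls within a list. Positions are 1-based. The summit pileup was solved from fold, (pileup + 1)/(background + 1), and the Poisson p-value, and came within 0.05 of a whole number for 100.0% of calls in each library. Log2(pileup + 1) was quantile-normalised over 44000 regions called in all 4 libraries and tested with limma 3.58.1 (variance trend, Benjamini-Hochberg over all 44000, threshold 0.05). Differences are on that log2 scale. A region with several calls took the strongest. Merging, pileup recovery and the fit were tested on simulated data. Python 3.11.15 and R 4.3.3 were used.

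The members and lists were chosen with earlier results of these data known. Regions named are the lost and gained regions above the median of both lists or else the 6 of highest rank, up to 10 called regions a direction by size of difference, the 10 strongest, the 5 longest, the 3 nearest each landmark and those at the edges. Alternatives were lists cut to equal length, a stricter −log10 q (5 or more), a region counted only where a call covers 50% of it, windows of 500 bp around summits, median centring, normal scores of ranks, a pseudocount of 10, the replicate number as a block, and each library left out. The planned match to gene starts was not made, since the gene table belongs to another build.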

Additional observations from a re-analysis of the deposited data

How the results depend on the processing

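The 15 lost regions became 5 with lists of equal length and 14 to 18 under the stricter q-value, 50% coverage or windows around summits. The 6 gained regions became 1 under the stricter q-value and 8 to 9 under equal lists, 50% coverage or windows. In each of these alternatives the lost share of the interval lay under the genome-wide share. The gained share lay under it with the stricter q-value and equal lists, and above it with 50% coverage or windows. Of the 6 gained regions named, 1 remained under the stricter q-value and 2 with equal lists. Leaving out a library, which loosens the definition, gave 17 to 29 lost and 8 to 15 gained regions. The lost share of the interval again lay under the genome-wide share in each case. The gained share lay under it without knockout replicate 1, and above it with any other library left out. The difference in the share of chromosome 17 calls stayed positive, from 0.377 to 0.9 percentage points, in all 7 alternatives run.

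Among shared regions, median centring gave 22 higher regions (11.4%, beside 13.1% of all shared regions), 11 of them among the 12. It gave 12 lower regions (6.22%, beside 8.96%). Leaving out a library gave 0 higher in each case and 0 to 1 lower regions, with all 12 and 13 differences keeping their sign, and limma at an unadjusted p under 0.05 gave 13 to 24 higher and 12 to 19 lower. The kept signs of the 12 and 13 regions say little about stability. In each of these regions both knockout levels already lay on the same side of both wild-type levels. Dropping a library could therefore hardly reverse a sign. The replicate numbers do not pair the libraries by any label. Differences between replicates 1 and 2 correlated between genotypes at 0.13 over all shared regions and −0.057 in the interval. With the replicate block, 21 regions were higher (10.9%, beside 13.8% of all shared regions) and 24 lower (12.4%, beside 15%), including all 12 and 13. With ranks, 10 were higher (5.18%, beside 4.8%) and 11 lower (5.7%, beside 7.61%), of which 8 and 11 were among those called. The filter on −log10 q and the pseudocount of 10 gave 12 higher and 12 to 13 lower. On the log2 scale the median difference ran from 0.056 to 0.127 over these alternatives. By normal scores of ranks, which are on another scale, it was 0.049. With median centring, which gave the 0.127, the median over the genome also rose, from 0.03 to 0.095. The causes were not tested. Unknown depth and 2 libraries a genotype limit all of these values.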
